A study of Mus musculus with 24 samples.

Results

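The immediate early genes described here are 10 genes for fast-induced regulators: Fos, Fosb, Jun, Junb, Egr1, Egr2, Egr3, Ier2, Ier3 and Atf3. They were taken by gene symbol from 18193 genes that had a probe set with a single symbol on the array. The list was chosen with earlier results of these data known, so that it is not blind to the values. A gene was read from the one of its probe sets with the highest mean log2 intensity over all 24 arrays. Of the 10 genes, 9 lay above the array median on all 24 arrays and were tested among 12352 genes. Fosb lay below the median on all 24 arrays and is described apart. Levels are compared between groups for 1 gene at a time, since the brightness of different probe sets cannot be set side by side.

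Total RNA of the mammary gland was hybridized to Affymetrix Mouse Genome 430 2.0 arrays. The donors were nulliparous Balb/c mice whose ovaries, the main source of progesterone, had been removed at 6 weeks of age, followed by 2 weeks without treatment. Progesterone-treated mice were injected daily under the skin with 1 mg of the hormone in 100 µl of sesame oil, control mice with the oil alone, and tissue was taken 4, 16, 28 or 76 h after the first injection. This gives 8 groups of 3 arrays, with the RNA of 5 mice pooled on each array and 15 mice per group. All groups therefore share the ovariectomy, the rest and the injection of oil, and none of them has a cycling ovary. Injections 24 h apart mean that the mice killed at 28 h and 76 h had more than 1 injection. On such a schedule the 4, 28 and 76 h groups were all killed 4 h after an injection, and the 16 h groups 16 h after one. Time since the first injection and the number of injections therefore cannot be told apart, and the 16 h groups also differ in the hours since the last. The labels name whole mammary gland, and the arrays carried markers of luminal and basal epithelium, fat, fibroblasts and endothelium, and also of skeletal muscle and lymphocytes. The p-values reflect variation among pools of mice, not single mice, and 3 arrays per group limit the precision. Where groups are said not to overlap, or 1 to lie above or below the other, this describes 3 against 3 arrays and is not a test. The share of all genes without overlap is not given here.

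Immediate early genes are transcribed within minutes of a stimulus, without new protein synthesis, when kinase cascades such as the MAP kinase pathway act on factors already bound at their promoters. Serum response factor with its partners binds CArG boxes, and CREB and ATF proteins bind elements with the core TGACG. Most of the products are transcription factors: FOS and JUN proteins pair into AP-1, EGR proteins are zinc-finger factors, and ATF3 is a stress-induced bZIP factor. The messages are short-lived, so that a transient burst between sampling times can leave no trace in a level measured hours later. Progesterone acts in this tissue through its receptor in a subset of luminal cells, which signal to neighbouring cells through secreted factors such as RANKL and WNT4.

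The promoters of 3 of the genes are shown because their messages behaved differently under progesterone: Egr2 had the largest difference from oil, the difference of Ier3 from oil shifted over the time course, and Fos passed the test at no time. Each sequence is the window of 250 bases before a transcript start, read 5′ to 3′ on the strand of the gene, from RefSeq on build GRCm38.p6. Capitals mark a CArG box (CC, then 6 bases of A or T, then GG) and the core TGACG on either strand.
Egr2, chr10:67537619-67537868, plus strand: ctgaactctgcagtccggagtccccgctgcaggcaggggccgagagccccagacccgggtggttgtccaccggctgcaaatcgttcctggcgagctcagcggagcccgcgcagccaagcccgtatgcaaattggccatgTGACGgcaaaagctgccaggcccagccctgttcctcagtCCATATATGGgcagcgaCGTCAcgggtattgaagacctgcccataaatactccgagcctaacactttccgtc
Ier3, chr17:35821463-35821712, plus strand: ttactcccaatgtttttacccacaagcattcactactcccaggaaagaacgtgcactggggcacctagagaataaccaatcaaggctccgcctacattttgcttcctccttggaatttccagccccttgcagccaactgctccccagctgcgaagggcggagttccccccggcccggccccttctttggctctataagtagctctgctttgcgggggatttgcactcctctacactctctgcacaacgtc
Fos, chr12:85473640-85473889, plus strand: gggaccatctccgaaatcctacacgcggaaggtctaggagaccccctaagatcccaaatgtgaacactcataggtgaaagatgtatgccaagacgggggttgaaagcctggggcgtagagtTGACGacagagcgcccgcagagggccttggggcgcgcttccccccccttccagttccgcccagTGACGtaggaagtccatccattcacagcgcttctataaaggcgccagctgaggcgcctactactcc
The promoter table had entries for 7 of the 10 genes (Fos, Fosb, Jun, Junb, Egr2, Ier3 and Atf3) with 11 windows. A CArG box was found in 4 of the 11 windows, all of them among the 5 overlapping or neighbouring windows of Egr2, against 1.47% of all 32851 promoter windows of this length. In the Egr2 window shown, it is CCATATATGG. TGACG was found on either strand in 7 of the 11 windows (those of Fos, Fosb, Junb and Atf3 and 3 of Egr2) against 17.8% of all. These 3 Egr2 windows overlap and share the same 2 TGACG matches and the same CCATATATGG. The window counts of both motifs therefore hold the same bases repeatedly and are not counts of separate promoters. The Ier3 window held neither motif. The AP-1 element TGANTCA was in 0 of the 11 windows (6.75% of all), the EGR element GCGNGGGCG in 1, that of Fosb (4.7% of all), and the palindromic steroid receptor element, AGAACA and TGTTCT spaced by 3 bases, in 0 (0.00913% of all). A match describes the letters of the window and does not show that a protein bound there. The lack of a match says nothing of bases outside the window.

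Of the 7 calls of members against oil of the same time, 5 were of early growth response genes, all higher under progesterone at 28 h or 76 h. The largest differences were those of Egr2, a zinc-finger factor known for its part in myelination and in T-cell tolerance. On the 3 oil arrays Egr2 had intensities of 226, 156 and 305 at 4 h, 310, 351 and 274 at 16 h, 224, 263 and 228 at 28 h, and 253, 226 and 273 at 76 h. On the progesterone arrays it had 302, 320 and 313 at 4 h, 743, 856 and 468 at 16 h, 998, 602 and 840 at 28 h, and 1382, 1247 and 653 at 76 h. Every progesterone array from 16 h on was thus brighter than every oil array of any time, while at 4 h the groups overlapped. The log2 fold change was 0.50 ± 0.25 (SE) at 4 h (adjusted p = 0.417) and 1.11 ± 0.25 at 16 h, which missed the threshold of 0.05 (adjusted p = 0.0573). Egr2 rose by 1.74 ± 0.25 at 28 h, or 3.35-fold (adjusted p = 0.000184), and by 2.06 ± 0.25 at 76 h, or 4.16-fold (adjusted p = 2.39e-06). A separate probe set for Egr2 gave 0.18 at 4 h (adjusted p = 0.782), 1.26 at 16 h (adjusted p = 0.00789), 1.72 at 28 h (adjusted p = 6.42e-05) and 2.09 at 76 h (adjusted p = 3.63e-07) when each probe set was tested alone. The 16 h difference of Egr2 therefore passed the test on this probe set and not on the one chosen by the rule, where it passed in 6 of the 24 fits without 1 array. Of the 3 promoter windows printed above, only that of Egr2 holds a CArG box. Bases outside the windows were not searched, so that a box further upstream of Fos or Ier3 would be missed. Egr1, Egr3 and Ier2 had no window to compare. Whether the box has a part in the rise of Egr2 was not tested.

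Egr1, the best-known member of the family and a sensor of growth factor signalling, had intensities of 1194, 867 and 839 on the oil arrays at 4 h, 907, 1351 and 1052 at 16 h, 1043, 1098 and 1034 at 28 h, and 1283, 866 and 900 at 76 h. On the progesterone arrays they were 1216, 1496 and 912 at 4 h, 2448, 2564 and 1580 at 16 h, 2436, 1654 and 2633 at 28 h, and 2600, 1950 and 1186 at 76 h. The groups overlapped at 4 h and at 76 h, where the dimmest progesterone array lay below the brightest oil array, and did not overlap at 16 h and 28 h. The log2 fold changes were 0.31 ± 0.25 at 4 h (adjusted p = 0.652), 0.98 ± 0.25 at 16 h (adjusted p = 0.102), 1.05 ± 0.25 at 28 h (adjusted p = 0.0182) and 0.86 ± 0.25 at 76 h (adjusted p = 0.0166). Egr1 thus rose 2.08-fold at 28 h and 1.82-fold at 76 h. The 28 h call was lost without oil array 1 or 2 or progesterone array 1 or 3, and the 76 h call without oil array 2 or 3 or progesterone array 1 or 2, with adjusted p up to 0.121 and 0.144. A fit to genes without the filter on low values also lost the 28 h call.

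Egr3, which is induced in many of the same settings as Egr1, was nearly level at 4 h, with intensities of 542, 533 and 546 under oil and 533, 535 and 552 under progesterone. It had 669, 706 and 651 under oil and 924, 851 and 627 under progesterone at 16 h, and 639, 705 and 661 against 701, 681 and 886 at 28 h. At 76 h the values were 641, 648 and 622 under oil and 917, 942 and 708 under progesterone, and only at that time did the groups not overlap. Its log2 fold changes were -0.00 ± 0.12, 0.23 ± 0.12 and 0.17 ± 0.12 at 4, 16 and 28 h (adjusted p = 0.999, 0.328 and 0.68). At 76 h Egr3 rose by 0.41 ± 0.12, or 1.33-fold (adjusted p = 0.0209), a call lost without any of the 3 oil arrays or without progesterone array 1 or 2 (adjusted p up to 0.11). A second Egr3 probe set stayed near background on all arrays, with intensities of 6.28 to 29.4.

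In 3 of the 4 progesterone groups the 3 EGR genes shared their dimmest array. It was array 3 at 16 h, array 2 at 28 h and array 3 at 76 h for Egr1, Egr2 and Egr3 alike, whereas in the other 5 groups, the 4 h progesterone group among them, the dimmest array differed between the genes. This was noticed after the values had been seen and is a description of these arrays.

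**Figure D1:**
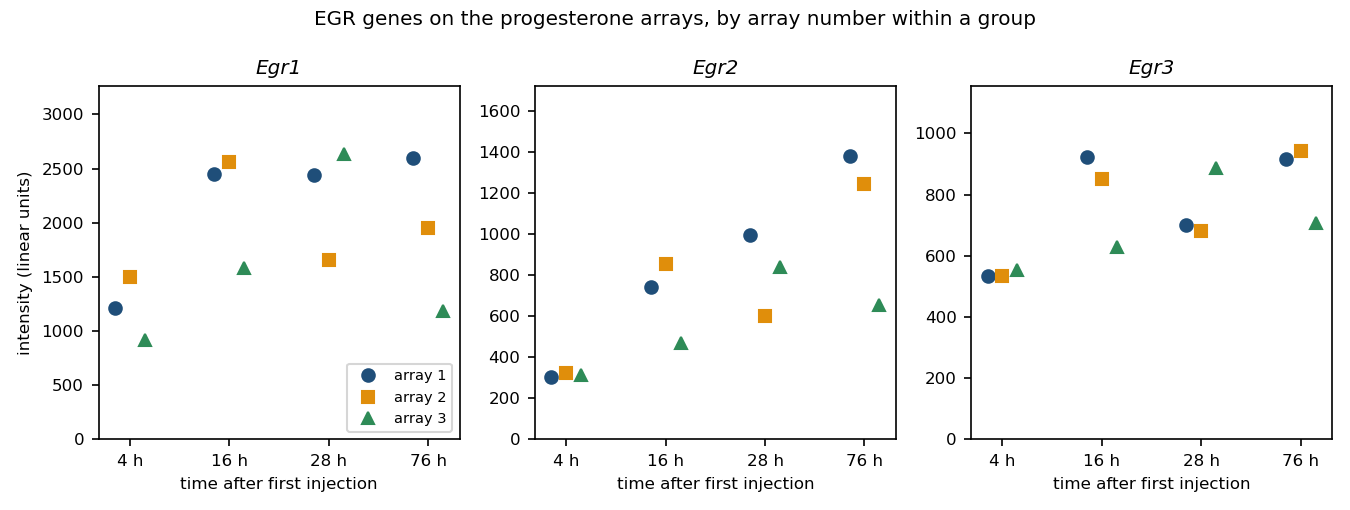
Intensity (linear units, axes from 0) of Egr1, Egr2 and Egr3 on the 3 progesterone arrays of each time after the first injection, with a symbol for each array number within a group. Array 3 is lowest for all 3 genes at 16 h and 76 h, and array 2 at 28 h; array numbers do not link arrays of different times.

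The IER genes encode small regulators of cell survival and proliferation. Both were lower under progesterone at 4 h, where neither passed the test, and their later courses differed. Ier3, an early response gene that modulates apoptosis and ERK signalling, had intensities of 219, 193 and 215 under oil and 149, 153 and 147 under progesterone at 4 h. It had 201, 205 and 219 against 209, 206 and 179 at 16 h, 156, 174 and 124 against 258, 195 and 213 at 28 h, and 176, 145 and 170 against 310, 302 and 296 at 76 h. All progesterone arrays were thus below the oil arrays at 4 h and above them at 28 h and 76 h, and the groups overlapped at 16 h. The log2 fold change was -0.48 ± 0.12 at 4 h (adjusted p = 0.0994) and -0.07 ± 0.12 at 16 h (adjusted p = 0.77), neither past the threshold. Ier3 rose by 0.55 ± 0.12 at 28 h, or 1.47-fold (adjusted p = 0.013), and by 0.89 ± 0.12 at 76 h, or 1.86-fold (adjusted p = 1.39e-05). The 28 h call was lost without oil array 3 or progesterone array 1 (adjusted p up to 0.149) and in a fit to the 6 arrays of that time alone. Its size rested on a low oil group: with the other 3 oil groups as controls the 28 h difference was 0.20 ± 0.10 (adjusted p = 0.407).

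Ier2, a nuclear early response protein, had intensities of 633, 664 and 682 under oil and 452, 433 and 585 under progesterone at 4 h. It had 587, 545 and 559 against 610, 670 and 625 at 16 h, 725, 708 and 567 against 959, 715 and 764 at 28 h, and 474, 422 and 527 against 584, 543 and 613 at 76 h. The progesterone arrays lay below the oil arrays at 4 h and above them at 16 h and 76 h, with an overlap at 28 h. The log2 fold changes of -0.44, 0.17, 0.28 and 0.29 (SE 0.12 each) at 4, 16, 28 and 76 h did not pass the test at any time (adjusted p = 0.121, 0.447, 0.314 and 0.104). Without progesterone array 3 the 4 h difference was -0.58 (adjusted p = 0.0104).

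The AP-1 genes did not pass the test at any time. Jun, the core partner of AP-1 dimers, had intensities of 427, 457 and 440 under oil and 564, 555 and 599 under progesterone at 4 h, and 545, 557 and 443 against 689, 654 and 651 at 16 h. At 28 h it had 492, 461 and 298 against 747, 591 and 501, and at 76 h 579, 500 and 544 against 592, 729 and 943. The progesterone arrays lay above the oil arrays of their own time at all 4 times, which describes these arrays and is not a test. The log2 fold changes were 0.38, 0.38, 0.57 and 0.46 (SE 0.17 each), with adjusted p of 0.342, 0.254, 0.0735 and 0.061. Leaving out 1 array at a time moved the 28 h difference between 0.34 and 0.71 and the 76 h difference between 0.28 and 0.62, and Jun passed the test in 3 and 4 of the 24 fits. At 28 h these were the fits without oil array 1 or progesterone array 3 of that time or progesterone array 3 of 76 h. At 76 h they were those without progesterone array 1 of that time, oil array 3 of 28 h or progesterone array 1 or 3 of 28 h. A separate Jun probe set gave 0.55, 0.44, 0.57 and 0.31 when tested alone, of which the 28 h difference passed the test (adjusted p = 0.0133) and the others did not (adjusted p = 0.0767, 0.185 and 0.106 at 4, 16 and 76 h).

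Fos, the classical marker of recent stimulation, had intensities of 472, 320 and 315 under oil and 409, 466 and 285 under progesterone at 4 h. It had 442, 629 and 602 against 455, 492 and 408 at 16 h, 408, 591 and 420 against 495, 327 and 514 at 28 h, and 476, 272 and 302 against 533, 484 and 543 at 76 h. The groups overlapped at the first 3 times and did not at 76 h. The log2 fold changes were 0.06, -0.29, -0.09 and 0.62 (SE 0.22 each), with adjusted p of 0.942, 0.472, 0.952 and 0.0556. Leaving out 1 array at a time gave the 76 h difference an adjusted p between 0.012 and 0.25, below the threshold in 5 of the 24 fits. Both TGACG cores found in the Fos window stand in the sequence printed above.

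Junb, a JUN protein with a weaker transactivation domain, ranged from 165 to 356 over the 24 arrays. Its oil and progesterone arrays overlapped at every time, and its log2 fold changes of -0.19, 0.21, 0.23 and 0.16 (SE 0.21 each) had adjusted p of 0.763, 0.608, 0.782 and 0.671. Atf3 had intensities of 106, 100 and 117 under oil and 148, 140 and 126 under progesterone at 4 h, and 81.8, 87.0 and 88.6 against 93.8, 101 and 120 at 28 h, without overlap at either time. At 16 h and 76 h its groups overlapped. The log2 fold changes of Atf3 were 0.36, 0.13, 0.28 and -0.16 (SE 0.13 each), and none passed the test (adjusted p = 0.239, 0.609, 0.382 and 0.476).

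Fosb, a FOS protein whose truncated form accumulates in the brain under repeated stimulation, had intensities between 15.2 and 46.5 and did not exceed the array median on any array. The oil and progesterone arrays overlapped at each time. In a fit without the filter, over 18193 genes, its log2 fold changes were 0.14, 0.07, 0.64 and -0.40 (SE 0.33 each), with adjusted p of 0.926, 0.95, 0.529 and 0.54. At this brightness a difference of that size is within the spread of the arrays.

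**Figure D2:**
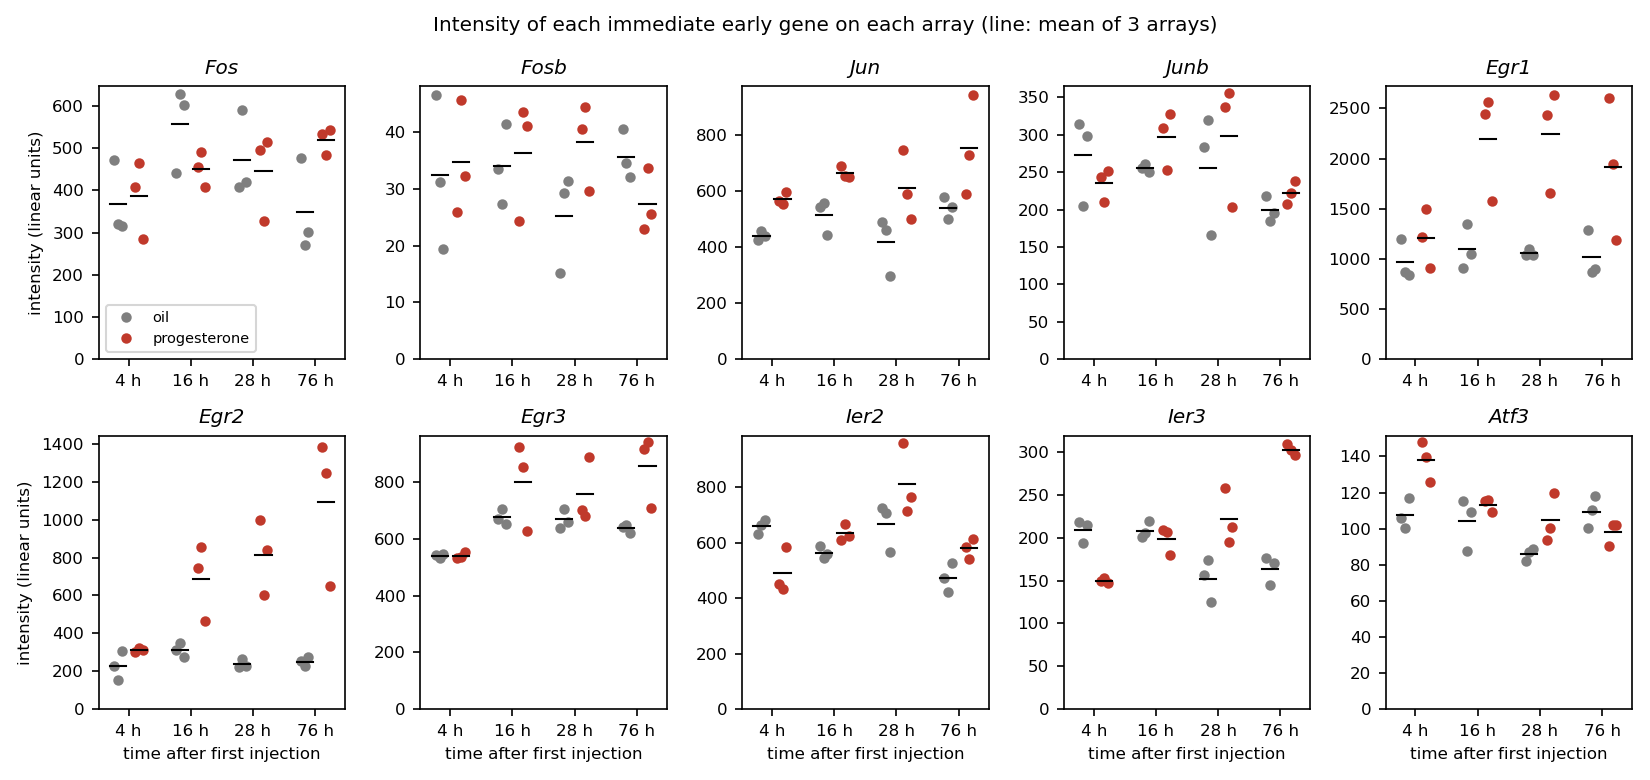
Intensity (linear units, axes from 0) of each of the 10 genes on each array, by time after the first injection, with oil in grey, progesterone in red and a line at the mean of 3 arrays. Egr2 climbs on the progesterone arrays to 653 to 1382 at 76 h, against 226 to 273 under oil, and Ier3 lies below oil at 4 h and above it at 28 h and 76 h.

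Counted over the 9 genes tested, 0 passed the test at 4 h, when 0.186% of all tested genes did, and 0 at 16 h, when 0.308% did. At an unadjusted p under 0.05 there were 4 at 4 h and 3 at 16 h. The share of all tested genes at that unadjusted threshold is not given, here or for the lists below. Such counts cannot be set against the shares of adjusted calls. At 28 h, 3 of the 9 rose (Egr1, Egr2 and Ier3) and 0 fell, against 2.53% of all genes called in either direction, 1.94% higher and 0.591% lower. At 76 h, 4 of the 9 rose (Egr1, Egr2, Egr3 and Ier3) and 0 fell, against 17.8% of all genes called in either direction, 11.1% higher and 6.7% lower. The median log2 fold change of the 9 genes was 0.06, 0.21, 0.28 and 0.46 at the 4 times, beside -0.01, -0.07, 0.00 and 0.02 over all tested genes. The 28 h count was 1 without progesterone array 1. The 76 h count was 2 without oil array 2 or 3 or progesterone array 2. Weighting arrays by their fit gave 4 members at 4 h and 6 at 16 h, but in that fit 22.4% and 59.4% of all tested genes were called. In whole tissue, a change in the number of cells of a type and a change in RNA per cell cannot be told apart.

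**Figure D3:**
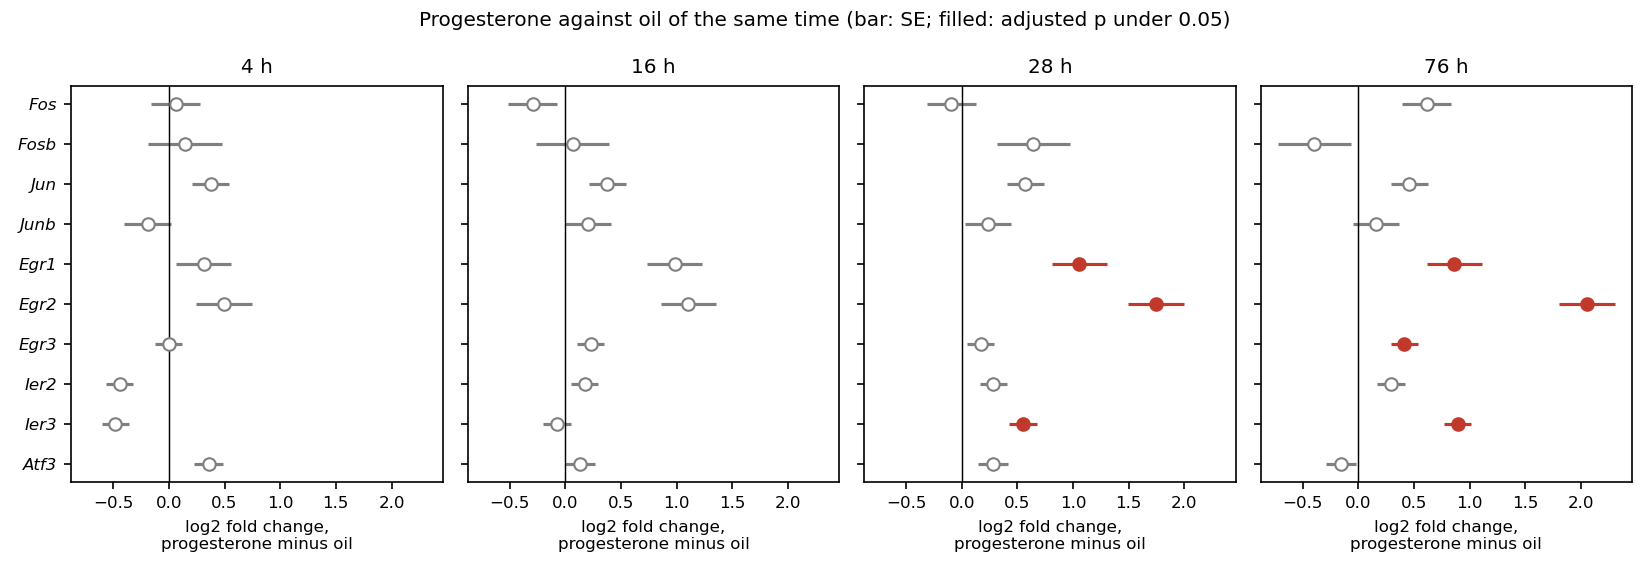
Log2 fold change of progesterone against oil of the same time for each of the 10 genes, with bars of 1 SE and filled points where the adjusted p was under 0.05; Fosb comes from the fit without the filter on low values. Filled points are Egr1, Egr2 and Ier3 at 28 h, and the same with Egr3 at 76 h, all to the right of 0.

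The difference from oil itself differed between times for 3 of the 9 genes by an F-test, against 10% of all tested genes. These were Ier3 (adjusted p = 4.63e-05), Ier2 (adjusted p = 0.0134) and Egr2 (adjusted p = 0.017). Between 4 h and 76 h the difference shifted upward by 1.56 for Egr2 (adjusted p = 0.00696), 0.74 for Ier2 (adjusted p = 0.00916) and 1.37 for Ier3 (adjusted p = 2.46e-05), a contrast called for 8.04% of all genes. For Ier3 the shift was 1.03 from 4 h to 28 h (adjusted p = 0.0094, 0.437% of all genes called) and 0.97 from 16 h to 76 h (adjusted p = 0.000718, 11.1% called). No member passed this test between 4 h and 16 h (0.0081% of all genes called), 16 h and 28 h (0.21%) or 28 h and 76 h (7.64%). For Egr1 and Egr3 the F-test gave adjusted p of 0.381 and 0.365, so that a difference between times was not shown for them.

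Among the progesterone groups alone, 6 of the 9 genes differed between times (Egr1, Egr2, Egr3, Ier2, Ier3 and Atf3), against 27.2% of all tested genes. From 4 h to 16 h, where 3% of all genes were called, Egr2 rose by 1.10 (adjusted p = 0.0215) and Egr3 by 0.55 (adjusted p = 0.0202). From 4 h to 28 h, where 0.421% of all genes were called, Egr2 rose by 1.35 (adjusted p = 0.0109), Ier2 by 0.73 (adjusted p = 0.00375) and Ier3 by 0.56 (adjusted p = 0.0439). No member passed the test from 16 h to 28 h, when 0.0081% of all genes did. From 16 h to 76 h (23.4% of all genes called) Ier3 rose by 0.61 (adjusted p = 0.00101). From 28 h to 76 h (20.7% called) Ier3 rose by 0.46 (adjusted p = 0.0108) and Ier2 fell by 0.48 (adjusted p = 0.00747). From 4 h to 76 h (24.9% called) Egr2 rose by 1.74 (adjusted p = 2.21e-05), Ier3 by 1.02 (adjusted p = 2.78e-06) and Egr3 by 0.65 (adjusted p = 0.000412), and Atf3 fell by 0.49 (adjusted p = 0.00867).

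Among the oil groups, 2 of the 9 genes differed between times, Ier2 (adjusted p = 0.0228) and Ier3 (adjusted p = 0.0178), against 12.2% of all tested genes. Mean Ier3 intensities (± SD, n = 3) were 209 ± 13.7 and 208 ± 9.62 in the 4 h and 16 h groups, and 152 ± 25.3 and 164 ± 16.3 in the 28 h and 76 h groups. Its 28 h level lay below that at 4 h by a log2 difference of -0.48 (adjusted p = 0.0295, 3.82% of all genes called) and below that at 16 h by -0.47 (adjusted p = 0.0212, 6.89% called). The neighbours in this order, 4 h and 16 h, and 28 h and 76 h, did not differ by the test. Ier2 was highest at 28 h (667 ± 86.9) and 4 h (660 ± 24.5), then 564 ± 21.6 at 16 h, and lowest at 76 h (474 ± 52.4). Its 76 h level fell below that at 4 h by 0.48 on the log2 scale (adjusted p = 0.0325, 3.57% of all genes called) and below that at 28 h by 0.49 (adjusted p = 0.0139, 8.39% called). No member passed the test between 4 h and 16 h (2.3% called) or between 16 h and 76 h (0% called). Of these calls, those of Ier3 at 28 h against 4 h were lost without oil array 1 or 3 of 4 h or array 3 of 28 h, and those against 16 h without array 2 or 3 of 16 h or array 3 of 28 h. Those of Ier2 at 76 h against 4 h were lost without any oil array of 4 h or array 1 or 2 of 76 h, and those against 28 h without array 1 or 2 of either time. The 28 h oil group against the other 3 together called 1 member, Ier3, at -0.36 (adjusted p = 0.0318), against 7.6% of all genes. Without the 28 h groups the F-test over the oil groups called 0 members.

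Because the oil arrays of 28 h stood apart, each progesterone group was also compared with the other 3 oil groups. These comparisons share control arrays and are given side by side, not as independent support. At 4, 16 and 76 h they bring the 28 h oil arrays into the controls. At 4 h only Atf3 passed, with 0.48 ± 0.11 (adjusted p = 0.0122) beside 0.36 against its own oil group, against 6.51% of all tested genes. Atf3 was lowest under oil at 28 h, with a mean of 85.8 there and 104 to 110 in the controls of 16 h and 76 h. At 16 h (4.53% of all) Egr2 differed 2.83-fold (adjusted p = 0.000382), and the log2 differences were Egr1 1.10 ± 0.20 (adjusted p = 0.00378), Jun 0.53 ± 0.14 (adjusted p = 0.0274) and Egr3 0.37 ± 0.10 (adjusted p = 0.0371). At 28 h (0.874% of all) Egr2 had 1.63 ± 0.20 (adjusted p = 9.82e-05), Egr1 1.12 ± 0.20 (adjusted p = 0.00447) and Ier2 0.53 ± 0.10 (adjusted p = 0.00707). At 76 h (32.6% of all) the members that passed were Egr2 with 2.04, Egr1 with 0.82, Jun with 0.71, Ier3 with 0.70 and Egr3 with 0.44, and Ier2 turned to -0.11 (adjusted p = 0.424). The differences of Egr1 and Egr2 at 28 h and 76 h thus had the same sign and passed the test against either set of oil arrays.

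Genes that act with the members or in the same response were read from lists chosen by function. Among AP-1 and bZIP partners 8 of 10 were tested and 1 was called against oil of the same time, at 76 h, where 17.8% of all genes were. Maff, a small MAF protein without a transactivation domain, fell at 76 h (adjusted p = 4.22e-05), from a mean intensity of 129 under oil to 39.1, which lies below the array medians and near background, so that its fold is imprecise. Among EGR and NR4A partners, including the EGR corepressors Nab1 and Nab2, 5 of 6 were tested and limma called 0 at any time (at an unadjusted p under 0.05, 2 at 16 h and 0 at the other times). With the other 3 oil groups as controls, 3 of the 5 were called at 76 h, where 32.6% of all genes were: Nr4a3 (0.95, adjusted p = 0.0424) and Nab2 (0.39, adjusted p = 0.0218) were higher and Nab1 (-0.30, adjusted p = 0.0115) lower. Against oil of the same time, the medians of both lists lay between -0.11 and 0.17.

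Of 26 other early response genes 23 were tested, and their medians were -0.03, -0.07, -0.10 and -0.12 at the 4 times. Ccn2, a matricellular protein and target of YAP and TGF-beta signalling, fell by 1.30 at 16 h (adjusted p = 0.000625) and by 1.88 at 28 h (adjusted p = 9.03e-07), where 1 gene, Plk2, a kinase of the cell cycle, rose by 0.55 (adjusted p = 0.0229). With the other 3 oil groups as controls at 28 h, Ccn2 was at -1.21 (adjusted p = 2.55e-05) and Plk2 at 0.24 (adjusted p = 0.335), and Ccn2 was itself higher in oil at 28 h than in the other oil groups by 0.67 (adjusted p = 0.0023). Of all tested genes 0.308% were called at 16 h and 2.53% at 28 h. At 76 h 3 rose and 5 fell, against 11.1% of all genes called higher and 6.7% lower. Myc, a driver of growth and proliferation, rose by 0.96 (adjusted p = 4e-06), from a mean of 341 to 665, Plk2 by 0.60 (adjusted p = 0.0023) and Ccn1 by 0.56 (adjusted p = 0.029). Gadd45a, a stress and growth-arrest gene, fell by 0.91 (adjusted p = 0.00296), or by 0.45 (adjusted p = 0.0458) with the other 3 oil groups as controls. The remaining calls at 76 h were 4 falls, so that the early response genes did not move as 1 block.

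All 19 feedback inhibitors were tested. At 16 h 1 fell, where 0.308% of all genes were called. At 76 h 2 rose and 2 fell, a share close to the 17.8% of all genes called at that time. Dusp1, a phosphatase that switches off MAP kinases, fell by 0.65 at 16 h (adjusted p = 0.0449) and by 0.79 at 76 h (adjusted p = 0.000192). With the other 3 oil groups as controls its 16 h difference was -0.21 (adjusted p = 0.283). Dusp2 fell by 0.61 at 76 h (adjusted p = 0.0183). The inhibitors of receptor tyrosine kinase signalling Spred1 and Spry1 rose at 76 h by 0.59 (adjusted p = 0.000285) and 0.52 (adjusted p = 0.026). The medians of the list were 0.04, -0.13, 0.05 and 0.04 at the 4 times. Among upstream kinases and factors, such as Srf, Elk1 and Creb1, 14 of 18 were tested and limma called 0 at any time (at an unadjusted p under 0.05, 3, 4, 0 and 2 at the 4 times), with medians of -0.01, -0.12, -0.02 and 0.04.

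Lists of stress responses were also counted. Of 9 integrated stress response genes, which include Atf4 upstream of Atf3, 1 was called, Asns, which fell by 0.37 at 76 h (adjusted p = 0.00872), and of 10 heat shock genes 1, Hspa1b, rose by 0.59 at 76 h (adjusted p = 0.0125), against 17.8% of all genes called. With the other 3 oil groups as controls Asns fell by 0.21 (adjusted p = 0.0407) and Hspa1b was at 0.21 (adjusted p = 0.243). Of 7 glucocorticoid targets, genes that steroid receptors of this class induce, 2 fell at 16 h and at 28 h. Of all genes 0.308% and 2.53% were called at these times in either direction. Tsc22d3 fell by 0.72 (adjusted p = 0.0491) and 0.84 (adjusted p = 0.00278), and Ddit4 by 0.84 (adjusted p = 0.0167) and 0.79 (adjusted p = 0.00538). With the other 3 oil groups as controls, 3 of the 7 were lower at 4, 16 and 76 h and 0 at 28 h. Of all genes 6.51%, 4.53%, 32.6% and 0.874% were called at 4, 16, 76 and 28 h. At 16 h these were Tsc22d3 (-0.53, adjusted p = 0.0204), Ddit4 (-0.52, adjusted p = 0.0242) and Per1 (-0.81, adjusted p = 0.0307). At 28 h Tsc22d3 was at -0.51 (adjusted p = 0.0641) and Ddit4 at -0.50 (adjusted p = 0.0713). The medians of the glucocorticoid list were -0.16, -0.29, -0.51 and -0.12 at the 4 times, and -0.35, -0.15, -0.17 and -0.28 with the other 3 oil groups as controls. In oil at 28 h the list had a median of 0.33 against the other oil groups. Against oil of the same time, the medians of both stress lists lay between -0.13 and 0.06.

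Markers of cell types in the gland also differed between progesterone and oil. Beside their counts, 0.186% and 0.308% of all tested genes were called at 4 h and 16 h in either direction. At 28 h 1.94% were higher and 0.591% lower, and at 76 h 11.1% were higher and 6.7% lower. Of 8 basal epithelium markers 3 rose at 16 h, 3 at 28 h and 7 at 76 h. Their mean log2 deviation from all arrays was 0.26, 0.32 and 0.93 under progesterone against -0.26, -0.32 and -0.36 under oil. This mean includes Krt17, at 6.83 and 7.17 (log2) under progesterone against 4.72 and 4.51 under oil at 16 h and 28 h. Krt17 lay above the array median on 1 of 12 oil and 9 of 12 progesterone arrays. The median log2 fold change of the basal list, less moved by 1 gene, was 0.34, 0.34 and 1.09 at 16, 28 and 76 h. The summed intensity of the 8 genes ranged from 9290 to 9948 under progesterone and from 5628 to 6240 under oil at 76 h. Of 10 luminal markers 7 rose and 1 fell at 76 h, with 0.83 against -0.17, and summed intensities of 17190 to 19430 against 7993 to 9707. At the earlier times the only luminal marker called was Pgr, the progesterone receptor itself, named after its values were seen. It fell by 2.45 at 4 h (adjusted p = 2.02e-07), 1.44 at 16 h (adjusted p = 0.00119) and 1.33 at 28 h (adjusted p = 0.000453). The luminal deviation, a mean that includes Pgr, was -0.39 against -0.03 at 4 h, -0.16 against 0.05 at 16 h and -0.14 against 0.02 at 28 h. The median log2 fold change of the luminal list, less moved by 1 gene, was -0.18, -0.06 and 0.05 at these times.

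Among the other cell types, 4 of 7 fibroblast markers rose at 28 h and 5 at 76 h. Of 7 tested macrophage markers 2 rose at 28 h and 1 at 76 h, against 1.94% and 11.1% of all genes called higher. At 28 h this went with a low oil group, at -0.60 for fibroblasts and -0.47 for macrophages, and with the other 3 oil groups as controls 0 markers of either list were called at 28 h (at an unadjusted p under 0.05, 1 and 4). Skeletal muscle was also low there, at -0.68. Of its 12 markers 5 were lower in oil at 28 h than in the other oil groups, against 7.6% of all genes called. Ier3 was low in the same group, with a mean intensity of 152, and also under oil at 76 h, with 164. In that 76 h oil group the deviations were 0.01 for fibroblasts, 0.05 for macrophages and -0.18 for skeletal muscle. Against oil of the same time, the 12 skeletal muscle markers had no call (at an unadjusted p under 0.05, 1 at 16 h and 0 at the other times), and their summed intensity ranged from 9705 to 64450 over the 24 arrays. The muscle deviation was 0.60 under oil and -0.01 under progesterone at 4 h, where Ier2 and Ier3 were lower under progesterone on all arrays. Under oil against progesterone it was 0.81 against 0.21 at 16 h, -0.68 against -0.10 at 28 h and -0.18 against -0.65 at 76 h. At 16 h the Ier3 groups overlapped and Ier2 was higher under progesterone on all arrays. At 76 h Ier2 and Ier3 were both higher under progesterone on all arrays. At 76 h 6 of 10 tested lymphocyte markers, 4 of 7 endothelial markers and 1 of 5 tested adipocyte markers fell, against 6.7% of all genes. A single call, as for adipocytes and for macrophages at 76 h, does not show a change of the whole list. Skin keratinocyte markers (2 of 5 tested) and red blood cell markers (1 of 3 tested) had no call, and markers that did not pass the filter included Lor, Flg, Krt2, Hba-a1, Hbb-b1, Lck, Itgam, Plin1 and Cfd. The part of any of these cell types in the levels of the immediate early genes was not tested.

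**Figure D4:**
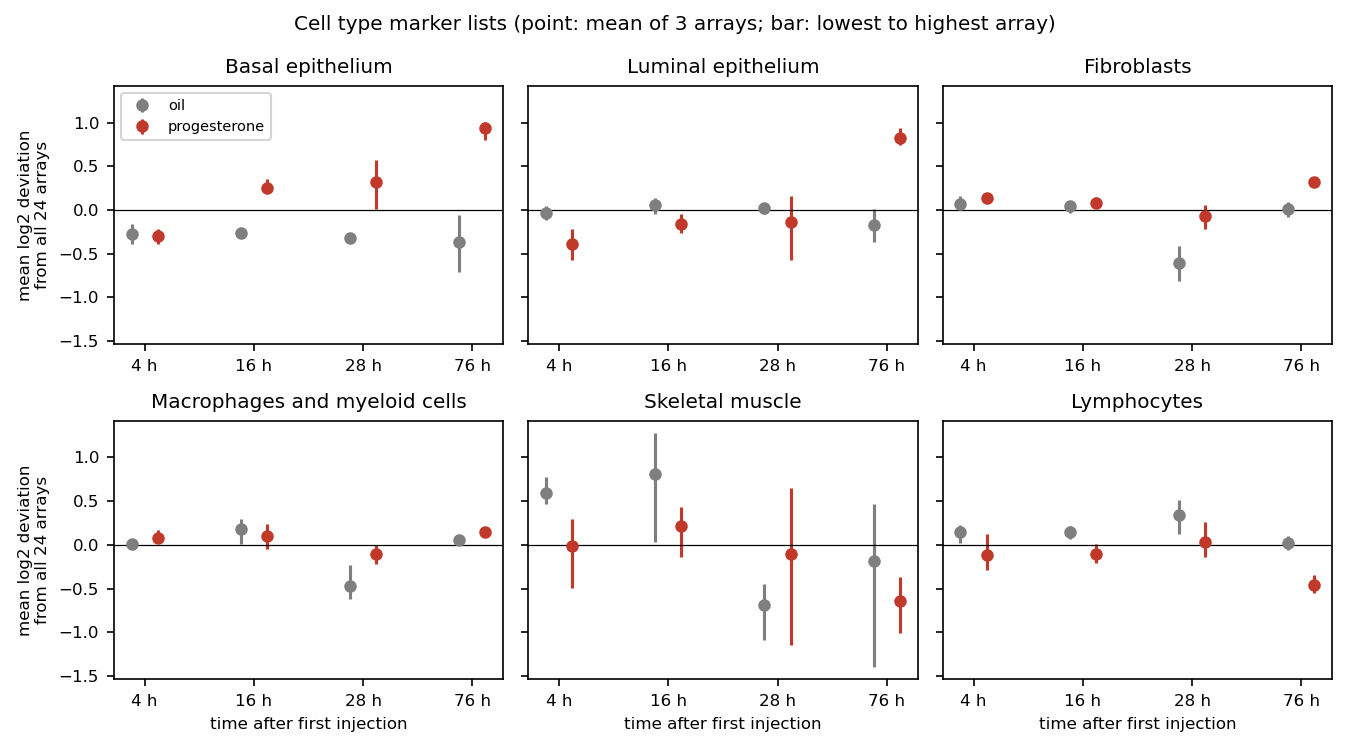
Mean log2 deviation of 6 cell type marker lists from their mean over all 24 arrays, by time after the first injection, with a point for the mean of 3 arrays, a bar from the lowest to the highest array, oil in grey and progesterone in red. Basal markers separate from oil at 16 h, 28 h and 76 h and luminal markers at 76 h, and at 28 h the oil arrays are low for fibroblasts and macrophages.

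The ratio of 3′ to 5′ control probe sets, a sign of RNA length, was higher under progesterone at 4 h for actin, at a log2 ratio of 0.56 ± 0.04 (SD, n = 3) against 0.43 ± 0.01 (exact permutation test, two-sided p = 0.1, the smallest that 3 against 3 arrays can give). For Gapdh at 4 h the ratio was 0.20 ± 0.18 against -0.08 ± 0.10 (exact permutation p = 0.2). At 16, 28 and 76 h the exact p-values for actin were 0.8, 1 and 0.3. The part of RNA length in the 4 h values of Ier2, Ier3, Jun and Atf3 was not tested.

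Over the 8 group means, the mean profile of the 9 genes was lowest in the oil group of 76 h (-0.28 on the centred log2 scale) and highest in the progesterone group of 76 h (0.35), with 0.27 at 16 h and 0.31 at 28 h under progesterone and -0.16 at 4 h. The 5 genes outside the members with the most similar group means were Gm13648 (Pearson r = 0.967), the basal keratin Krt17 (r = 0.960), the growth factor Tgfb2 (r = 0.954), Plekhs1 (r = 0.946) and the Notch target Hes1 (r = 0.940). These values describe 8 points that share the same arrays. Gm13648, Krt17 and Plekhs1 lay above the array median on 1, 1 and 0 of the 12 oil arrays and on 4, 9 and 5 of the 12 progesterone arrays, so that they passed the filter through the progesterone groups and their likeness is partly set by it. Tgfb2 and Hes1 lay above it on all 24 arrays. Krt17, one of the basal markers above, had group means on the log2 scale of 6.83, 7.17 and 6.81 at 16, 28 and 76 h under progesterone against 4.72, 4.51 and 4.74 under oil.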

How the data were processed

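The table of 24 arrays holds 1 value for each of 45101 probe sets, and the deposited values are intensity values on a linear scale, as their range and medians (62.8 to 70.2) show. Trizol extraction and one-cycle biotin labelling are given per the labels' protocols. The probe summarisation software is not given in the sources read, nor is any scaling. Gene symbols came from the platform annotation of 2016 (34945 probe sets with 1 symbol, 932 with several, 9160 with none, 64 controls left out).

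Values below the 10th percentile (7.38) were raised to it and log2 was taken. Array log2 medians spanned 0.16, under the limit of 0.3 for further normalization. A probe set had to exceed its array median on at least 3 arrays. All 24 arrays were fitted with a mean per group in limma 3.58.1 (R 4.3.3, statmod 1.5.0) with an intensity trend and 16 residual degrees of freedom. Adjusted p-values are Benjamini-Hochberg values over all 12352 genes, tests are two-sided, and the threshold for a call was 0.05. Fold changes are differences of mean log2 values with SE from the fit, and SD is over 3 arrays. The script was tested on simulated data, which says nothing of any one call here.

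The members, the lists and the tests were chosen with earlier results of these data known. Named genes are the 10 members, up to 4 called genes of each list with the largest change, and the 5 genes most like the members' mean profile. Alternatives were other filters, floors, a pseudocount of 16, normalizations, probe-set rules, variance settings, controls, thresholds, a replicate block and leaving out each array. Contrasts between pairs of progesterone groups and between effects at pairs of times, and F-tests without the 28 h groups, were added after the data had been seen.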

Additional observations from a re-analysis of the deposited data

Results flagged for a closer look

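For 3 genes the difference between progesterone and oil itself differed between the times after the first injection, by the F-test over the interaction contrasts. For Ier3 the adjusted p was 4.63e-05, with log2 fold changes of -0.48, -0.07, 0.55 and 0.89 at 4, 16, 28 and 76 h. For Ier2 it was 0.0134, with -0.44, 0.17, 0.28 and 0.29, none of which passed the test alone. For Egr2 it was 0.017, with 0.50, 1.11, 1.74 and 2.06. Without the 28 h groups the test still called these 3 genes.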

How the results depend on the processing

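Each result was recomputed under the alternatives, 1 choice at a time. Egr2 at 28 h and 76 h and Ier3 at 76 h kept their calls in all 15 alternatives and without any of the 24 arrays. Egr1 and Egr3 at 76 h kept theirs in all 15 alternatives and in 20 and 19 of the fits without 1 array, Egr1 at 28 h in 14 and 20, and Ier3 at 28 h in 13 and 22. Array weights raised the counts most, to 4 at 4 h, 6 at 16 h, 7 at 76 h, 8 for the oil groups, 6 for the effect between times, 6 for oil at 28 h against the other oil groups and 25 for pairs of oil groups, from 0, 0, 4, 2, 3, 1 and 4. In that fit 22.4%, 59.4%, 13.1% and 39.1% of all genes were called against oil at the 4 times. For oil at 28 h against the other oil groups 41.7% were called, and for the pairs of oil groups 18.2% to 49.5%. The shares for the F-tests in that fit are not given here. The cause of the higher counts was not tested. An adjusted p under 0.1 gave 1 at 4 h, 1 at 16 h and 2 for oil at 28 h. Quantile normalization, the mean of probe sets and every probe set alone each gave 1 at 16 h (Egr2). The oil arrays of the other 3 times gave 1 at 4 h and 4 at 16 h, and the 6 arrays of 76 h alone gave 7. For oil at 28 h, centring arrays gave 0, and the mean of probe sets or no intensity trend gave 2. Without the 28 h groups the oil groups gave 0. Leaving out 1 array gave 0 to 1 at 4 h, 0 to 2 at 16 h (2 without progesterone array 1), 1 to 4 at 28 h, 2 to 5 at 76 h, 1 to 2 for the oil groups (1 without oil array 2 of 28 h or 76 h), 4 to 7 for the progesterone groups, 2 to 3 for the effect, 0 to 2 for oil at 28 h (0 without oil array 1 of 4 h, 1 or 3 of 28 h, or 1 or 3 of 76 h) and 2 to 4 for pairs of oil groups (2 without oil array 1 or 3 of 4 h or 1 or 2 of 76 h). Ier2 at 76 h reversed to -0.11 with the other 3 oil groups as controls. Junb in oil at 28 h, called in neither fit, reversed to -0.02, -0.06 and -0.14 without oil array 2 of 4 h or array 1 or 2 of 28 h, in a range of -0.14 to 0.33. Same-numbered arrays deviated together with correlations from -0.018 to 0.346, not all over 0.1. Arrays of different numbers were not compared in this way, so whether a number stands for shared handling was not tested. A replicate block left the counts at 0, 0, 3, 4, 2, 6, 3, 1 and 4. Values under the array median, as for Fosb, lie near background, where fold changes are imprecise.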
